A study of Saccharomyces cerevisiae with 27 samples.

Results

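The transcripts of 32 genes for subunits of the 26S proteasome and of RPN4, the gene for the transcription factor that drives them, were measured in the budding yeast Saccharomyces cerevisiae. The 33 genes were taken by open reading frame name from the 6692 genes of the deposited table, and all 33 were found in every library and passed the filter on low values. They comprised 14 genes of the 20S core particle, 18 of the 19S regulatory particle, and RPN4 (YDL020C). The strain was BY4741, a haploid laboratory strain auxotrophic for histidine, leucine, methionine, and uracil. All cultures grew in synthetic complete medium with 2% glucose, the non-restricted (NR) condition, and each received 1 of 3 supplements at inoculation. CRCM was concentrated conditioned medium from calorie-restricted cultures, NRCM was concentrated conditioned medium from non-restricted cultures, and water was the control. Cells were collected in log phase, at 24 h, and at 96 h, which made 9 groups of 3 libraries. The CRCM and NRCM concentrates were made from yeast cultures and are undefined mixtures, so a response to one cannot be assigned to a single compound from these libraries.

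The proteasome is the main protease for ubiquitylated proteins in the cytosol and nucleus. Its 20S core is a barrel of outer alpha rings, which gate the entrance, and inner beta rings, which hold the proteolytic sites. The 19S particle caps the barrel. Its base contains the ATPases Rpt1 to Rpt6, which unfold and thread substrates, and the scaffolds Rpn1 and Rpn2 with the ubiquitin receptors Rpn10 and Rpn13. Its lid contains the deubiquitylase Rpn11 and a set of scaffold subunits. Rpn4 is an activator that binds a short element named PACE in proteasome promoters, and the proteasome itself degrades Rpn4 rapidly, which closes a feedback loop. As yeast cells use up glucose and enter quiescence, proteasomes are known to leave the nucleus and gather in cytosolic storage granules.

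The shared feature of these genes is visible in the DNA before their start codons. The letters GGTGGCAAA were searched on both strands in the 300 bases before the start codon of each gene in the R64 reference (the assembly of sacCer3, RefSeq annotation). An exact match was present for 27 of the 32 subunit genes, against 73 (1.22%) of 6007 genes with a complete window. The nearest matches ended 75 to 174 bases before the start codon with a median of 111, 19 on the coding strand and 8 on the other strand. The fragments below show the element in capitals for 6 genes to which the expression results return, each read in the direction of the element:
PUP3 (chrV:349511-349539, minus strand): tggcactgccGGTGGCAAAaaagtgcaaa
PRE8 (chrXIII:86841-86869, minus strand): agcttattaaGGTGGCAAAattgtccccg
PRE2 (chrXVI:732184-732212, plus strand): acagcaaaagGGTGGCAAAacgaagaata
RPT6 (chrVII:411352-411380, minus strand): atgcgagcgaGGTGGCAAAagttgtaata
RPN1 (chrVIII:164838-164866, minus strand): tgtgttttacGGTGGCAAAaggcgagcac
RPN12 (chrVI:252398-252426, minus strand): aatttcaatgGGTGGCAAAtaatgtgtag

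The other 5 subunit genes had no exact match, and each held a version with 1 substitution within the same range of positions, shown in capitals:
PRE5 (chrXIII:901552-901580, plus strand): cctattatagAGTGGCAAAattaaaaatt
PUP1 (chrXV:631891-631919, minus strand): aacccggccgAGTGGCAAAataccaaaaa
RPN8 (chrXV:817085-817113, minus strand): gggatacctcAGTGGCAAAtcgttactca
RPN10 (chrVIII:498968-498996, minus strand): tgtaaattccGGTGGCGAAaacccgcctg
RPN13 (chrXII:965656-965684, minus strand): ttattcgcgaGGTGGCGAAagctttgcta
Counted from 1 at the 5′ end of the element, the change was G1A in PRE5, PUP1, and RPN8, and A7G in RPN10 and RPN13. The share of all genes that hold a version with 1 substitution was not counted. Such versions also lay before genes outside the 32 subunits, among them UBP6, HUL5, UBR1, UFD1, NPL4, and SHP1. A match is a description of the letters and not evidence of binding in these cultures.

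**Figure D1:**
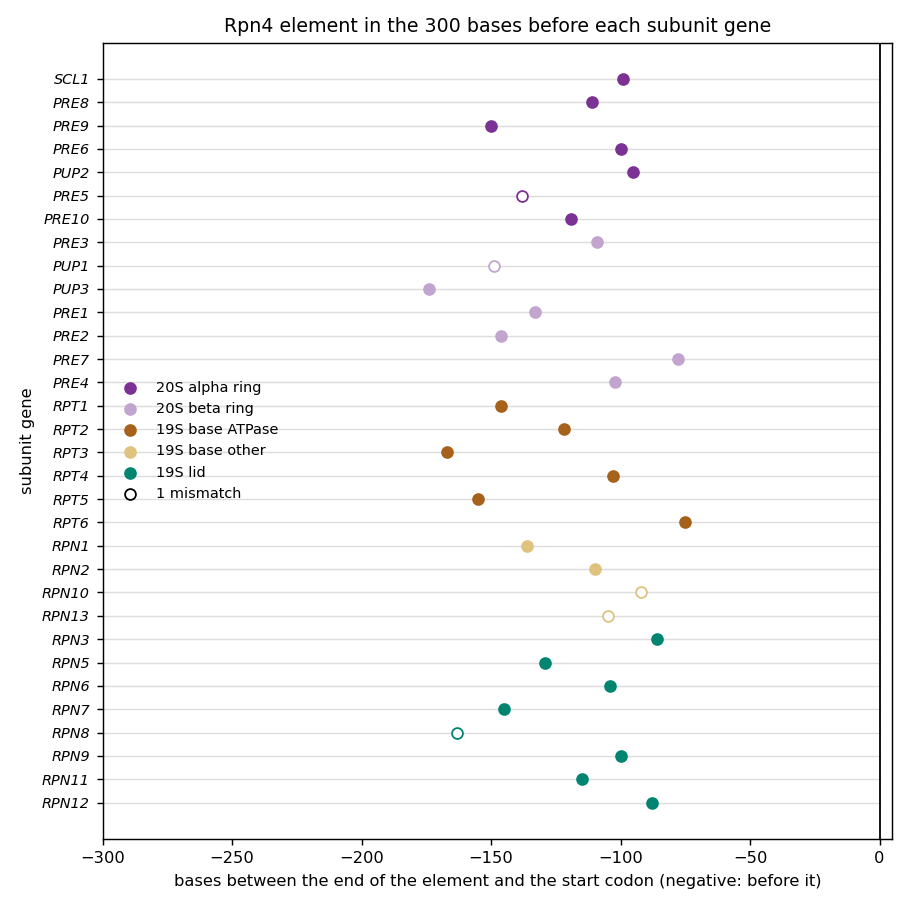
Position of the PACE letters in the 300 bases before the start codon of the 32 subunit genes, with the distance in bases from the end of the element to the start codon on the x axis and 1 gene per row. Filled circles are exact matches (27 genes) and open circles the best match with 1 mismatch (5 genes), and the exact matches fall between 75 and 174 bases before the start codon.

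RPN4 itself held no PACE in this window. Its promoter is known as a target of the drug resistance factors Pdr1 and Pdr3 and of the oxidative stress factor Yap1, so TCCACGGA and TTACTAA were searched on both strands in the 600 bases before its start codon. TCCACGGA occurred at 2 positions, 391 and 434 bases away, and occurred in 1.3% of windows of 600 bases. TTACTAA occurred at 1 position, 367 bases away, and occurred in 13.7% of such windows, so this match is a common one. The fragments carry the letters in capitals:
RPN4, nearer Pdr1 and Pdr3 letters (chrIV:417090-417117, minus strand): tacgaaccttTCCACGGAtaatcacgtg
RPN4, farther Pdr1 and Pdr3 letters (chrIV:417133-417160, plus strand): ttctttgagtTCCACGGAacttgttatt
RPN4, Yap1 letters (chrIV:417066-417092, minus strand): gtgatcgctaTTACTAAtagccgttta

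The libraries held 7396426 to 114316128 reads on genes (median 12375094), and the fewest reads on any of the 33 genes in a library were 470. Levels are given as scaled CPM, the share of gene reads in CPM units after division by TMM factors over all 27 libraries. TMM sets the typical gene equal between libraries, so a rise or fall here is relative to the typical gene. That choice matters in these data. Without TMM the median of all genes moved by 0.42 (log2) for CRCM against water at 24 h, by -0.12 and -0.10 for CRCM and NRCM against water at 96 h, and by 0.71 for 96 h against 24 h in water, and the counts of called subunits without TMM are given for the comparisons that had calls. Replicate 3 of CRCM at 96 h stood apart. It held LEU2 at 68.1 CPM and URA3 at 11.7 CPM, genes that BY4741 lacks and that were at or near 0 in the other 26 libraries, so the counts of called subunits for CRCM at 96 h, and the genes whose calls depend on it, are also given without it. No subunit gene overlapped another annotated coding sequence (0 of 33 genes including RPN4), which matters because the strand setting of the counting is not given in the sources used here.

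The levels of the subunits for their length differed by at most 5.23 times in any group. Other genes were not compared in this way. Per kilobase of coding sequence, the mean level of the 32 genes in water in log phase ran from 137 scaled CPM per kb for RPN1 to 404 for PRE9, a ratio of 2.94. The 14 core genes had a median of 282 scaled CPM per kb and the 18 regulatory particle genes 211. The ratio of highest to lowest at 24 h was 3.97 in water, 5.23 with CRCM, and 5.02 with NRCM. At 96 h it was 2.85 in water, close to the log phase value, 4.88 with CRCM, and 3.80 with NRCM. RPN7, a lid subunit, was the lowest gene in water at both later times (88.7 and 88.1 scaled CPM per kb), and RPN8, the partner of the deubiquitylase Rpn11, was the highest 19S gene at both (352 and 217). The level of RPN4 was 73.1 ± 7.1 scaled CPM per kb in water in log phase (SD, n = 3), below every subunit, and 213 ± 13 at 96 h. These per-length levels rest on coding length alone, and the spread of PRE9 in log phase (SD 134 scaled CPM per kb in water) was wide enough that its place at the top does not stand apart from its neighbors.

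RPN4 was followed in every library. In log phase it read 104, 121, and 125 scaled CPM in water, 114, 116, and 89.6 with CRCM, and 105, 122, and 95.4 with NRCM. The 3 groups overlapped, with log2 fold changes of -0.14 ± 0.16 (SE) for CRCM and -0.12 ± 0.16 for NRCM against water (limma, adjusted p = 0.998 and 0.878). At 24 h RPN4 read 272, 251, and 344 in water, 231, 234, and 226 with CRCM, and 185, 250, and 273 with NRCM. Every 24 h library was above every log phase library. The rise from log phase to 24 h was 1.29 ± 0.14 (log2, adjusted p = 8.66e-09) in water, 1.11 ± 0.14 (1.12e-07) with CRCM, and 1.12 ± 0.14 (1.03e-07) with NRCM, and without TMM it was 1.13, 1.46, and 1.17. At 24 h neither supplement passed the test against water (-0.33 ± 0.16, adjusted p = 0.11, and -0.30 ± 0.16, adjusted p = 0.237), and without TMM the CRCM value was 0.09.

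At 96 h the 3 supplements separated in RPN4. The libraries read 357, 317, and 345 scaled CPM in water, 290, 276, and 297 with CRCM, and 432, 447, and 450 with NRCM. The groups did not overlap, with CRCM lowest, water in the middle, and NRCM highest. CRCM against NRCM gave a log2 fold change of -0.66 ± 0.09 (limma, adjusted p = 0.000469), -0.67 without TMM and -0.67 without CRCM replicate 3. In that comparison 17.3% of all tested genes were called higher and 19.7% lower. RPN4 was lower with CRCM than with water (log2 fold change -0.27 ± 0.09, adjusted p = 0.0369), a call that held without TMM (-0.38, adjusted p = 0.00499) and without CRCM replicate 3 (-0.28, 0.0258) and was lost when water replicate 1 or 3 or CRCM replicate 1 or 2 was left out (adjusted p up to 0.125), with edgeR (0.0501), or with a replicate block (0.0746). It rose with NRCM against water by 0.39 ± 0.09 (adjusted p = 0.0159), and that call was lost without water replicate 2 (adjusted p = 0.0583) or NRCM replicate 3 (0.0527). From 24 h to 96 h RPN4 rose with NRCM by 0.92 ± 0.14 (adjusted p = 6.65e-06). The values for the same step were 0.32 ± 0.14 with CRCM (adjusted p = 0.0648) and 0.24 ± 0.14 in water (0.145), and the difference between the NRCM effects at these times missed the threshold (0.68 ± 0.20, adjusted p = 0.0891). The calls of this step depended on the scaling. Without TMM RPN4 rose in all 3 groups, by 0.92 in water (adjusted p = 2.49e-06), 0.45 with CRCM (0.0096), and 1.44 with NRCM (4.71e-09). With TMM and without water replicate 3 at 24 h the water value was 0.38 (adjusted p = 0.0402), while the CRCM step was called in none of the 6 fits that left out a library.

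**Figure D2:**
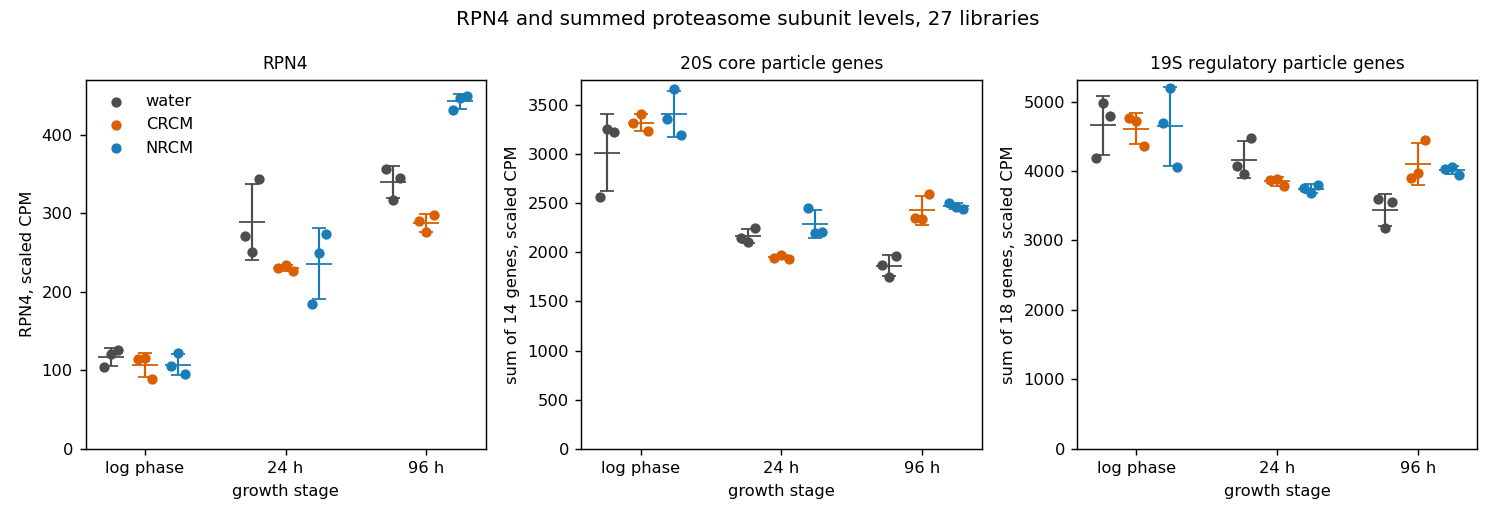
Scaled CPM of RPN4 (left), summed over the 14 genes of the 20S core (middle), and summed over the 18 genes of the 19S particle (right), by growth stage and supplement. Points are single libraries, and the bars are the mean and SD of 3 libraries. RPN4 rises from about 104 to 125 in water in log phase to 251 to 344 at 24 h while the summed subunits fall.

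RPN4 and the subunits it activates moved in opposite directions at the end of log phase. The 32 subunits summed to 7670 ± 804 scaled CPM in water in log phase (SD, n = 3), 6333 ± 345 at 24 h, and 5307 ± 324 at 96 h. From log phase to 24 h in water 2 subunits rose and 16 fell (median log2 fold change -0.30), where 37.1% of all genes tested were called higher and 39.2% lower. With CRCM 2 rose and 23 fell (median -0.56; all genes 39.7% higher and 36.5% lower). With NRCM 0 rose and 23 fell (median -0.37; all genes 38.8% and 39.5%), and 0 rose at an unadjusted p under 0.05. Without TMM the counts were 0 and 23 in water, 6 and 12 with CRCM, and 0 and 21 with NRCM. Over all 6658 genes tested they were 2146 and 2866 in water, 3375 and 1868 with CRCM, and 2644 and 2474 with NRCM.

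The largest falls were in the core. PRE6, the alpha 4 subunit, read 150, 150, and 250 scaled CPM in water in log phase and 65.5, 66.1, and 72.3 at 24 h, a log2 fold change of -1.38 ± 0.19 (adjusted p = 3.38e-07). With CRCM it went from 203, 207, and 239 to 60.6, 61.0, and 58.8 (-1.82 ± 0.19), and with NRCM from 196, 235, and 217 to 112, 66.7, and 68.9 (-1.41 ± 0.19). PRE9, the alpha 3 subunit and the one core subunit yeast can live without, read 263, 433, and 245 in water in log phase and 138, 121, and 136 at 24 h (-1.20 ± 0.20). These genes fell in all 3 supplements with no overlap between time points, and both calls held without TMM. PUP1, the beta 2 subunit with the trypsin-like site, was the second largest fall with CRCM, from 148, 144, and 156 to 60.9, 54.2, and 60.8 (-1.34 ± 0.16), and PRE9 was the second with NRCM (-1.23 ± 0.20).

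A few 19S genes went the other way. RPN8 read 212, 339, and 237 scaled CPM in water in log phase and 329, 307, and 439 at 24 h (0.46 ± 0.17, adjusted p = 0.0156), and the groups overlapped. RPN2, the scaffold that holds Rpn13, read 383, 389, and 494 and then 525, 548, and 532 (0.35 ± 0.15, adjusted p = 0.0373). In water both calls rested on TMM, and leaving out any 1 of the 6 water libraries left 0 or 1 higher subunit. With CRCM the rises were in RPN8, from 233, 248, and 218 to 368, 391, and 338 (0.65 ± 0.17), and in the lid subunit RPN5, from 299, 305, and 193 to 415, 414, and 400 (0.65 ± 0.17), and both of these held without TMM.

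**Figure D3:**
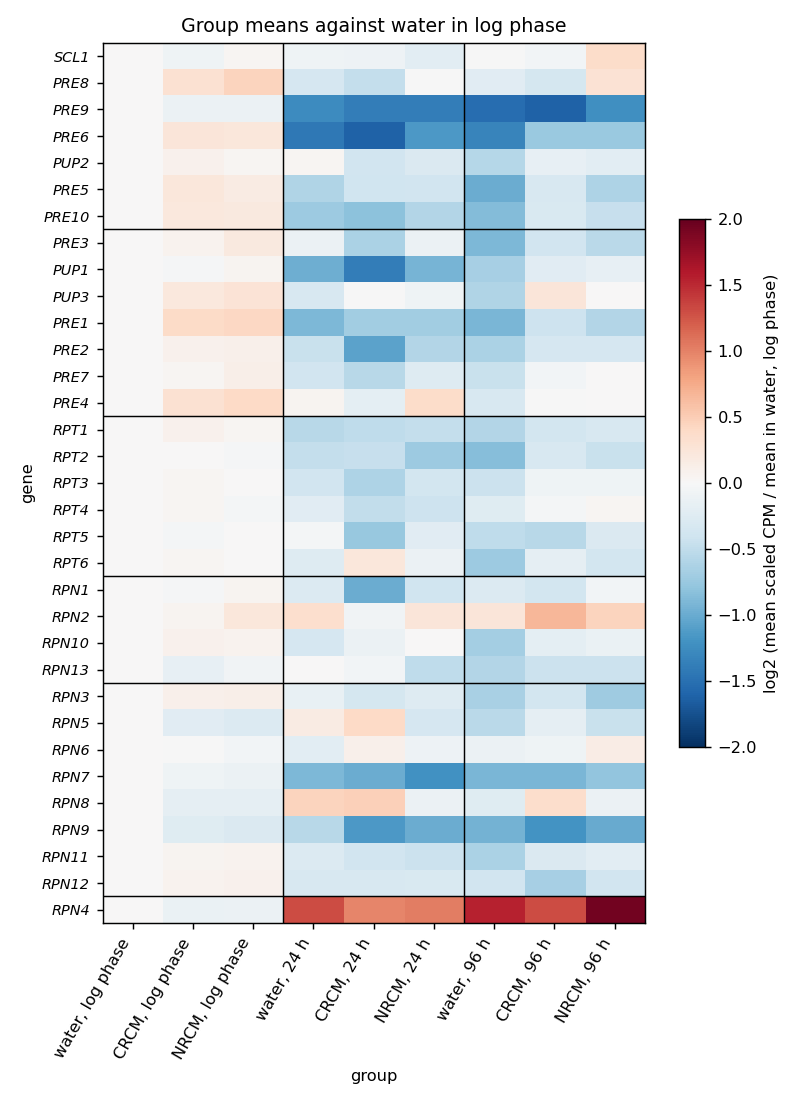
Group mean of each of the 33 genes (rows) in the 9 groups (columns), as the log2 ratio of mean scaled CPM to water in log phase, with blue lower and red higher. Lines separate the alpha ring, beta ring, ATPases, other base subunits, lid, and RPN4. RPN4 is red in all later groups, and many subunits, with PRE9, PRE6, RPN7, and RPN9 among them, are blue in all of those groups.

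In log phase no subunit was called. Against water 0 of 32 subunits were called higher or lower with CRCM (median 0.05; 0% of all genes in each direction) or with NRCM (median 0.06; 0% higher and 0.0154% lower), and CRCM against NRCM gave 0 and 0 (median -0.01; 0% in each direction). At an unadjusted p under 0.05 the counts were 0, 2, and 0 subunits, and edgeR and DESeq2 also called 0. The ratio of core to regulatory particle transcripts, given below for every library, was nonetheless higher in each supplemented library than in each water library at this stage.

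At 24 h CRCM against water gave 3 of 32 subunits higher and 9 of 32 lower (median -0.13). Of all genes 27.2% were called higher and 24.2% lower, so the share of subunits called lower was near that of all genes. The 9 were PUP2 of the alpha ring, the beta subunits PRE3, PRE2, and PRE4, the ATPases RPT3 and RPT5, the scaffolds RPN1 and RPN2, and the lid subunit RPN9. RPN1 (YHR027C), which docks the shuttle receptors that deliver ubiquitylated proteins, read 314, 340, and 367 scaled CPM in water and 204, 209, and 203 with CRCM (-0.74 ± 0.09, adjusted p = 0.000175). RPT5 read 273, 267, and 314 in water and 177, 168, and 171 with CRCM (-0.73 ± 0.11, adjusted p = 0.000571). PRE2, the beta 5 subunit with the chymotrypsin-like site, read 194, 198, and 218 and then 131, 137, and 126 (-0.64 ± 0.12, adjusted p = 0.00175). None of the 3 overlapped between groups, and leaving out any 1 library kept their calls.

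The 3 higher subunits at 24 h were an ATPase, a lid subunit, and a core subunit. RPT6 (YGL048C) read 218, 226, and 203 in water and 302, 305, and 295 with CRCM (0.46 ± 0.07, adjusted p = 0.000749). RPN6, which clamps the lid to the core, read 199, 197, and 194 and then 242, 241, and 253 (0.30 ± 0.07, adjusted p = 0.00724). PUP3, the beta 3 subunit, read 179, 180, and 181 and then 221, 223, and 221 (0.28 ± 0.07, adjusted p = 0.0107). Thus 2 ATPases of the same ring, RPT5 and RPT6, were called in opposite directions. Of the 12 calls, RPT6, RPN6, PUP3, RPN1, and RPT5 held in the same direction without TMM. The count there was 18 of 32 subunits higher and 2 lower, beside 3779 and 654 of 6577 genes tested. The share of subunits called higher was thus near that of all genes. The split of calls over all genes moved from 52.9% to 85.2% higher. Leaving out water replicate 3 raised the higher calls from 3 to 5. The lower calls of PUP2, PRE3, PRE2, PRE4, RPT3, RPN2, and RPN9 are relative to the typical gene and were not kept without TMM.

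NRCM at 24 h gave fewer calls. Against water 3 subunits were higher and 4 lower (median -0.05; all genes 6.93% higher and 6.39% lower). PRE8 read 133, 125, and 124 scaled CPM in water and 157, 164, and 162 with NRCM (0.34 ± 0.07, adjusted p = 0.0173), RPN10 gave 0.34 ± 0.09 (0.0348) from 141, 148, and 129 to 164, 186, and 180, and PRE4 gave 0.31 ± 0.08 (0.0349) from 230, 233, and 237 to 269, 301, and 296. The largest falls were in RPN8, from 329, 307, and 439 to 259, 216, and 251 (-0.55 ± 0.14, adjusted p = 0.0345), RPN13, from 103, 94.6, and 124 to 73.2, 69.1, and 82.4 (-0.50 ± 0.12, 0.0234), and RPN5, from 342, 301, and 405 to 250, 230, and 259 (-0.49 ± 0.11, 0.0247). The fourth was RPN7. Without TMM the counts were 4 and 3 (all genes 585 and 293 of 6577). The calls of PRE8, PRE4, and RPN10 as higher and of RPN13, RPN5, and RPN8 as lower were kept. The 7 calls depended on single libraries. With water replicate 1, water replicate 3, or NRCM replicate 2 left out the counts were 0 higher and 0 lower, without NRCM replicate 3 they were 1 and 1, and without NRCM replicate 1 they were 5 and 8.

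Set directly against each other at 24 h, CRCM had 4 subunits higher and 8 lower than NRCM (median -0.09; all genes 22.3% and 19.8%). The core accounted for 0 of the higher and 4 of the lower calls. The lower side was led by RPN1 at -0.61 ± 0.09 (331, 302, and 299 scaled CPM with NRCM), by PRE4, the beta 7 subunit, at -0.58 ± 0.08 (191, 197, and 197 with CRCM), and by RPT5 at -0.54 ± 0.11 (215, 258, and 276 with NRCM). The higher side was led by RPN5 at 0.71 ± 0.11, RPN8 at 0.58 ± 0.14, and RPN13 at 0.43 ± 0.12, with the libraries given above for NRCM and, for RPN13, 106, 107, and 95.1 with CRCM. PRE4 was thus higher than water with NRCM and lower than water with CRCM. Without TMM the count was 18 higher and 2 lower (all genes 3451 and 545 of 6577). The calls of RPN1, PRE4, RPN5, RPN8, RPN13, and RPT6 kept their directions. Leaving out NRCM replicate 1 raised the higher calls from 4 to 7.

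At 96 h most called subunits were higher than in water. With CRCM 18 subunits were higher and 1 lower (median 0.29; all genes 19.6% higher and 21.7% lower), and with NRCM 18 were higher and 0 lower (median 0.33; 0 lower at an unadjusted p under 0.05; all genes 12.5% and 12%). Without TMM the counts were 12 and 3 with CRCM and 7 and 0 with NRCM. Over all 6652 genes tested they were 928 and 1878 with CRCM and 489 and 1109 with NRCM. Without CRCM replicate 3 CRCM gave 17 higher and 1 lower. With a replicate block the counts were 14 and 1 with CRCM (all genes 1206 and 1335) and 12 and 0 with NRCM (658 and 631). Both comparisons share the 3 water libraries, and these carry weight: without water replicate 2 the higher calls were 9 with CRCM and 5 with NRCM. For NRCM any 1 left-out library brought the 18 calls down to between 5 and 9, and the 4 genes called in all 6 such fits were PRE8, PUP1, PUP3, and PRE7. For CRCM 9 genes were called higher in all 6 fits, namely PRE5, PRE10, PRE3, PUP1, PUP3, PRE1, PRE7, RPT2, and RPT6.

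The core particle held most of the higher calls. With CRCM 11 of 14 core genes were called higher, 4 of 7 in the alpha ring and 7 of 7 in the beta ring, against 7 of 18 in the 19S particle. With NRCM the counts were 13 of 14, with 6 of 7 in the alpha ring and 7 of 7 in the beta ring, against 5 of 18. Without CRCM replicate 3 the CRCM counts were 3 of 7 in the alpha ring and 7 of 7 in the beta ring. PUP3 (YER094C) changed most, from 151, 130, and 162 scaled CPM in water to 236, 244, and 310 with CRCM (0.79 ± 0.12, adjusted p = 0.000644) and to 225, 243, and 208 with NRCM (0.61 ± 0.12, adjusted p = 0.00722). PRE5, the alpha 6 subunit, read 122, 126, and 129 in water and 181, 199, and 224 with CRCM (0.64 ± 0.10, adjusted p = 0.000597). RPN8 came next with CRCM, from 232, 203, and 229 to 275, 328, and 402 (0.55 ± 0.15, adjusted p = 0.0121). Without CRCM replicate 3, the highest library for each of these 3 genes, the log2 fold changes were 0.69 for PUP3, 0.57 for PRE5, and 0.42 for RPN8, and all 3 calls were kept. All 7 beta ring genes, which include the 3 proteolytic subunits PRE3, PUP1, and PRE2, were higher in every supplemented library than in every water library at 96 h. Such a lack of overlap was not counted over all genes. Without TMM their log2 fold changes ran from 0.16 (PRE2 with CRCM) to 0.68 (PUP3 with CRCM), and not all 7 stayed called. The calls kept without TMM were PRE3, PUP1, PUP3, PRE1, and PRE7 with CRCM and PUP1, PUP3, and PRE7 with NRCM. The same beta ring calls were the ones kept in every fit that left out a library.

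With NRCM the rises after PUP3 were led by PRE6 and RPN10. PRE6 read 67.0, 67.1, and 86.6 scaled CPM in water and 117, 99.3, and 111 with NRCM (0.58 ± 0.14, adjusted p = 0.0181), and RPN10 read 110, 92.0, and 129 and then 178, 151, and 152 (0.55 ± 0.12, adjusted p = 0.0114). The lid stayed behind the core. None of its 8 genes was called with NRCM (0 higher and 0 lower; 2 higher at an unadjusted p under 0.05). With CRCM RPN3, RPN5, and RPN8 were higher and RPN12 was lower. RPN12 (YFR052W), the last subunit to join the lid, was the 1 subunit called lower, at 105, 100, and 110 in water and 82.8, 86.8, and 87.8 with CRCM (-0.32 ± 0.08, adjusted p = 0.00876), a call kept without TMM and without any 1 library.

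**Figure D4:**
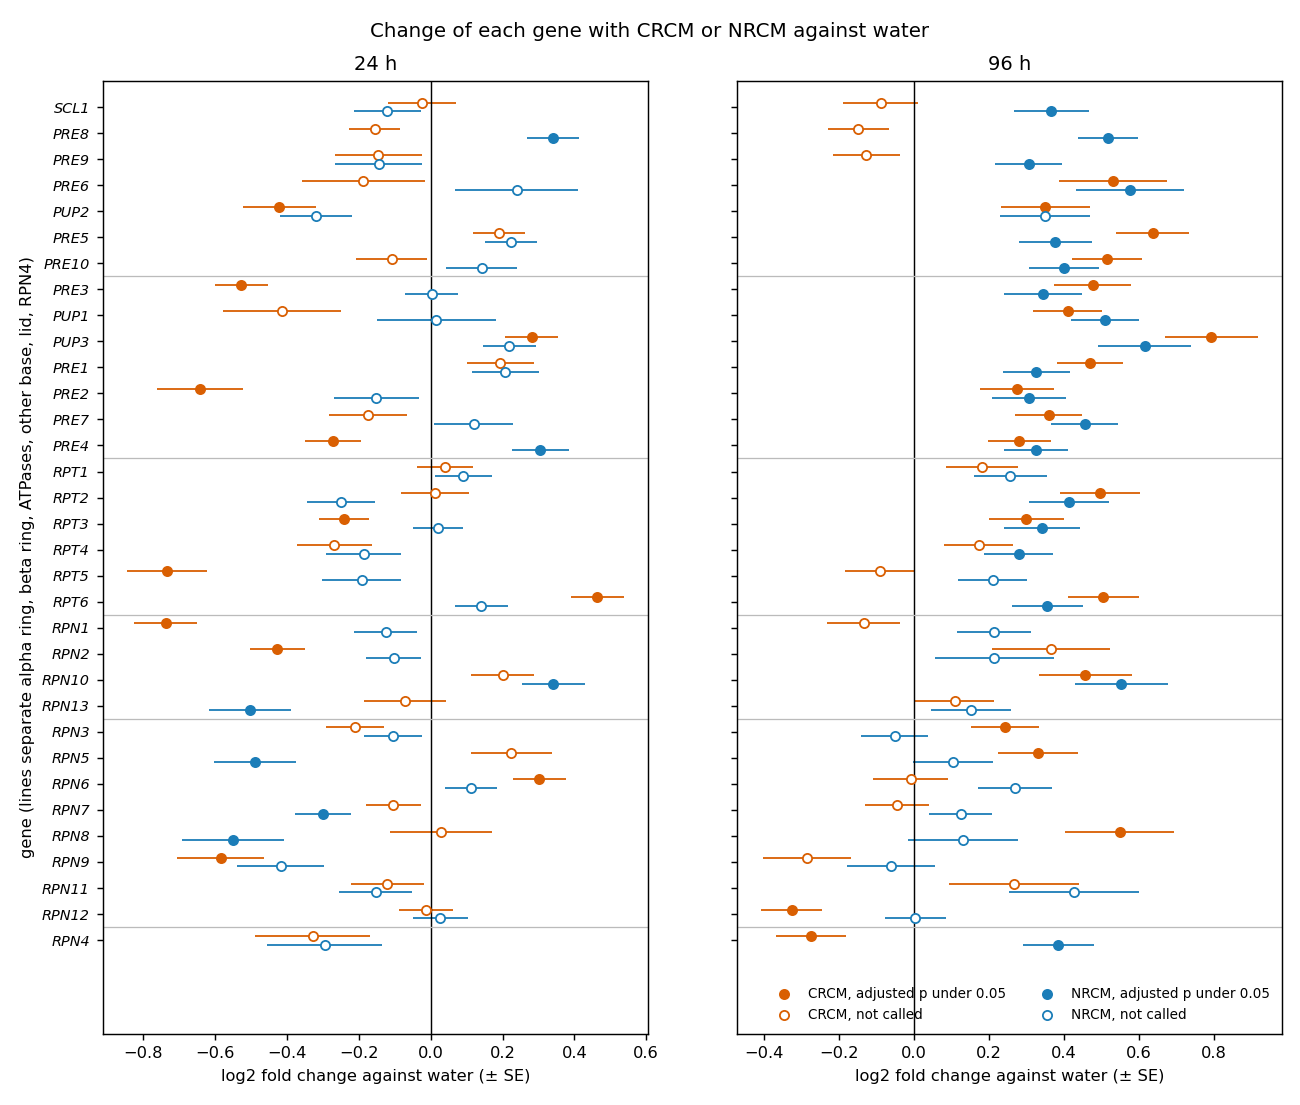
Log2 fold change of each of the 33 genes against water with CRCM (orange) and NRCM (blue) at 24 h (left) and 96 h (right), with the SE as bars and filled points for an adjusted p under 0.05. At 24 h CRCM points lie on both sides of 0, from -0.74 for RPN1 to 0.46 for RPT6, and at 96 h all 7 beta ring genes lie to the right of 0 with both supplements.

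The ratio of core to regulatory particle transcripts does not depend on the scaling, since both sums come from 1 library. It read 0.613, 0.653, and 0.672 in water in log phase, 0.698, 0.723, and 0.741 with CRCM, and 0.717, 0.705, and 0.788 with NRCM, so every supplemented library was above every water library. In water it was 0.528, 0.533, and 0.503 at 24 h. At 96 h it was 0.520, 0.551, and 0.553 in water, 0.601, 0.591, and 0.583 with CRCM, and 0.620, 0.608, and 0.618 with NRCM. The 96 h groups did not overlap, and the ratio in both supplemented groups was above that in water. At 24 h the NRCM libraries (0.651, 0.596, and 0.582) were above the CRCM libraries (0.502, 0.507, and 0.512) and the water libraries. These ratios are a description, as sums over genes of unequal length were not tested.

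**Figure D5:**
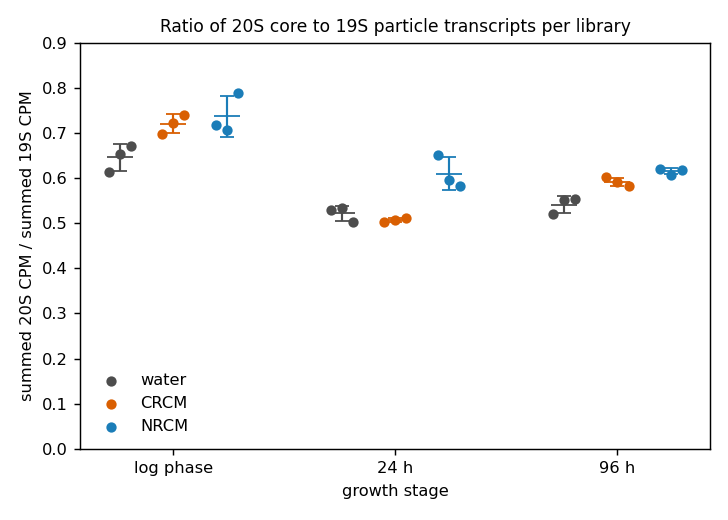
Summed CPM of the 14 core genes divided by summed CPM of the 18 regulatory particle genes in each library, by growth stage and supplement, with the mean and SD of 3 libraries. Water lies between 0.520 and 0.553 at 96 h, below all CRCM and NRCM libraries of that time point.

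Between CRCM and NRCM at 96 h 2 of 32 subunits were higher and 7 of 32 lower with CRCM (median -0.05), where 17.3% of all genes were called higher and 19.7% lower, so the share of subunits called lower was near that of all genes. Without TMM the counts were again 2 and 7 (all genes 1075 and 1295), and these 9 calls were kept. The largest differences were in the alpha ring. PRE8 (YML092C), the alpha 2 subunit, read 123, 127, and 131 scaled CPM with CRCM and 197, 198, and 194 with NRCM (-0.67 ± 0.08, adjusted p = 0.000214), with water at 137, 132, and 143. SCL1, the alpha 1 subunit, read 191, 186, and 174 with CRCM and 246, 267, and 224 with NRCM (-0.45 ± 0.10, adjusted p = 0.00532), with water at 196, 182, and 193. PRE9 read 105, 107, and 94.4 with CRCM and 138, 132, and 134 with NRCM (-0.43 ± 0.09, adjusted p = 0.00381), with water at 113, 104, and 109. These neighbors in the alpha ring were called higher with NRCM than in water, PRE8 alone of them without TMM, and were not called between CRCM and water.

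The remaining lower calls were RPN1 (-0.35 ± 0.10), RPN12 (-0.33 ± 0.08), RPT5 (-0.30 ± 0.09), and RPN6 (-0.28 ± 0.10). RPN8 was higher with CRCM at 0.42 ± 0.15 (adjusted p = 0.0438), with NRCM at 226, 285, and 218 so that the groups overlapped, and RPN3 was higher at 0.29 ± 0.09 (adjusted p = 0.0253) from 179, 189, and 191 with NRCM to 242, 235, and 227 with CRCM. With a replicate block 0 subunits were higher. Without CRCM replicate 3 the count was 1 higher and 7 lower, with RPN6 and RPN8 no longer called and RPN11 called lower (-0.41, adjusted p = 0.00239). SCL1, PRE8, PRE9, and RPN12 were called in all 6 fits that left out a library. Across these fits the lower counts went down to 4 and the higher to 0 without CRCM replicate 2, NRCM replicate 1, or NRCM replicate 3.

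The counts of subunits called from 24 h to 96 h differed among the supplements, and tests of the difference itself are given further below. In water 0 subunits rose and 12 fell (median -0.24; 0 rose at an unadjusted p under 0.05; all genes 27.1% higher and 26.5% lower), led by PRE3, from 192, 184, and 197 to 112, 108, and 115 (-0.77 ± 0.16, adjusted p = 0.000218), and RPN5 (-0.70 ± 0.17, adjusted p = 0.00156). With CRCM 9 rose and 4 fell (median 0.14; all genes 22.4% and 24.8%), led by PUP1 at 1.15 ± 0.16 (adjusted p = 3.13e-06), from 60.9, 54.2, and 60.8 to 131, 129, and 133, and PRE6 at 0.84 ± 0.19 (0.00077), with RPN5 (-0.58 ± 0.17) and RPT6 (-0.41 ± 0.12) the largest falls. With NRCM 8 rose and 3 fell (median 0.13; all genes 28.8% and 28.2%), led by PUP1 at 0.79 ± 0.16 (adjusted p = 0.000168), from 108, 68.5, and 65.1 to 145, 129, and 137, and SCL1 at 0.57 ± 0.12 (0.000404), with RPN3 (-0.44 ± 0.13) and PRE3 (-0.43 ± 0.16) the largest falls. The direction of this step in water turned with the scaling. Without TMM 21 of 32 subunits were higher and 0 lower at 96 h, beside 4571 and 602 of 6658 genes tested. The share of subunits called higher was thus near that of all genes. Opposite calls under the 2 scalings were carried by 4 subunits. The 32 subunits took 0.510% to 0.542% of the reads in water at 24 h and 0.699% to 0.707% at 96 h, so their share of reads rose while they fell against the typical gene. Without TMM CRCM gave 15 and 1 (all genes 1967 and 1211) and NRCM 26 and 0 (all genes 3797 and 807). Without CRCM replicate 3 at 96 h CRCM gave 8 and 4. Single libraries also set some of these counts. The falls with CRCM went from 4 to 2 without replicate 2 at 24 h or replicate 1 at 96 h. The rises with NRCM went from 8 to 4 without replicate 2 or 3 at 24 h and to 5 without any 1 replicate at 96 h, and the falls to 1 without replicate 3 at 24 h.

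An interaction over all 27 libraries asked whether CRCM acted differently at 96 h and at 24 h. The difference was positive and called for 15 subunits and negative for 0 (median 0.47; 0 negative at an unadjusted p under 0.05; all genes 15.5% positive and 14.4% negative). PRE3 gave the largest value (1.02), followed by PRE2 (0.94) and PUP1 (0.84). In PUP2, PRE3, PRE2, PRE4, and RPT3 the effect was called in opposite directions at the 2 times, lower with CRCM at 24 h and higher at 96 h. Of these 5 only PRE3 kept both calls in every fit that left out a library. PRE3, the beta 1 subunit with the caspase-like site, read 129, 138, and 135 scaled CPM with CRCM at 24 h against 192, 184, and 197 in water, and 171, 159, and 150 against 112, 108, and 115 at 96 h. The level of PRE3 with CRCM was not called between the times, while the level in water fell. Without TMM the same test gave 0 positive and 7 negative (all genes 401 and 3299), so these positive calls are relative to the typical gene. Leaving out any 1 library gave 11 to 15, and leaving out CRCM replicate 3 at 96 h gave 11. For NRCM the interaction was called for 0 subunits in either direction (median 0.34; all genes 1.02% and 0.36%; also 0 and 0 without TMM; 12 positive at an unadjusted p under 0.05). RPN5 and RPN8 were lower with NRCM at 24 h and higher with CRCM at 96 h.

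Of the 32 subunits 2 were called in none of the 9 supplement comparisons. RPT1, an ATPase of the base, read 240, 215, and 247 scaled CPM in water, 275, 258, and 282 with CRCM, and 292, 259, and 287 with NRCM at 96 h, above water in every supplemented library. RPN11, the deubiquitylase of the lid, read 135, 126, and 135 in water and 185, 183, and 164 with NRCM, and its CRCM libraries at 139, 132, and 235 were split by CRCM replicate 3, without which it was called lower than with NRCM.

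The responses can also be counted by the state of the PACE letters. With CRCM at 96 h 14 of the 27 subunits with an exact element were higher and 1 lower (median 0.27). Of the 5 with a substituted element 4 were higher (median 0.46), beside 19.6% of all genes higher and 21.7% lower. With NRCM at 96 h the counts higher were 15 of 27 (median 0.33) and 3 of 5 (median 0.38), beside 12.5% of all genes. At 24 h with CRCM the 9 lower and 3 higher genes all had the exact element, and 0 of the 5 others were called. Of all genes 27.2% were higher and 24.2% lower there. At 24 h with NRCM 2 of the 27 were higher and 2 lower, and 1 of the 5 was higher and 2 lower. Of all genes 6.93% and 6.39% were called in that comparison. With 5 genes in 1 class these are counts and not a comparison.

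Assembly factors and partner proteins did not move as 1 group with the subunits. Of 17 genes for assembly chaperones and associated proteins, 6 were higher and 5 lower with CRCM against water at 24 h (median -0.07), beside 27.2% and 24.2% of all genes. These 17 include the lid gene SEM1, which is not among the 32 subunits. The chaperones ADD66 (0.55 ± 0.12), from 31.5, 34.3, and 26.9 to 46.8, 45.5, and 45.7 scaled CPM, IRC25 (0.51 ± 0.11), and NAS6 (0.43 ± 0.12) were the largest rises. UBP6, the deubiquitylase docked on Rpn1, fell most, from 161, 146, and 194 to 87.6, 86.7, and 85.8 (-0.94 ± 0.14, adjusted p = 0.000431), followed by ECM29 (-0.59 ± 0.08), which links core and regulatory particle, and RPN14 (-0.59 ± 0.10). At 96 h 4 were higher and 2 lower (median 0.15), beside 19.6% and 21.7% of all genes. SPG5, a proteasome-associated protein of stationary phase, rose most, from 710, 526, and 621 to 1719, 1778, and 1294 (1.33 ± 0.18, adjusted p = 0.000251), with FUB1 (0.63 ± 0.11) and IRC25 (0.51 ± 0.10) next, and ECM29 (-0.52 ± 0.10) and RPN14 (-0.32 ± 0.10) fell. Without CRCM replicate 3 the counts were 6 and 2, and RPN14 was not called (-0.25, adjusted p = 0.0501). SPG5 was at 633, 827, and 687 with NRCM at 96 h (0.21 ± 0.18, adjusted p = 0.399).

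Of 22 genes for ubiquitin, its enzymes, shuttles, and the Cdc48 machine, 6 were higher and 10 lower with CRCM at 24 h (median -0.14), beside 27.2% and 24.2% of all genes. The ubiquitin-binding Cdc48 cofactor DOA1 (-0.92 ± 0.12), the ubiquitin-conjugating enzyme UBC4 (-0.85 ± 0.14), and the ubiquitin-activating enzyme UBA1 (-0.81 ± 0.09) fell most. UBA1 went from 485, 525, and 477 scaled CPM in water to 284, 279, and 290. The Cdc48 cofactor SHP1 (0.65 ± 0.09), the partner of Ubr2 in Rpn4 turnover MUB1 (0.41 ± 0.10), and the nuclear ligase SAN1 (0.38 ± 0.12) rose most. At 96 h 4 were higher and 7 lower (median -0.03), beside 19.6% and 21.7% of all genes, with the shuttles RAD23 (0.59 ± 0.10) and DSK2 (0.48 ± 0.10) and the conjugating enzyme UBC5 (0.42 ± 0.12) the largest rises and the deubiquitylase DOA4 (-0.61 ± 0.17), the polyubiquitin gene UBI4 (-0.61 ± 0.16), and DOA1 (-0.49 ± 0.10) the largest falls. UBI4 and DOA4 were lowest in CRCM replicate 3 (494 and 55.4 scaled CPM), and without it their values were -0.43 (adjusted p = 0.0129) and -0.40 (0.012). UBR2, the ligase that marks Rpn4 for destruction, was lower at 96 h with CRCM (-0.49 ± 0.11, adjusted p = 0.00441) and with NRCM (-0.84 ± 0.11, adjusted p = 0.00113).

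An exact PACE lay before 1 of the 17 assembly and associated genes, ECM29, and before 3 of the 22 ubiquitin and Cdc48 genes, UBI4, UBA1, and CDC48. All 4 were lower with CRCM than with water at 24 h, beside 24.2% of all genes. At 96 h ECM29 and UBI4 were again lower, while UBA1 and CDC48 were not called. These 4 genes thus share the element with the subunits and were not called higher at 96 h. Among the regulators known to act on RPN4, YAP1 (0.36 ± 0.08, adjusted p = 0.00336) and PDR1 (0.48 ± 0.12, adjusted p = 0.0071) were higher with CRCM at 24 h, beside 27.2% of all genes. PDR3 and HSF1 were not called. At 96 h 0 of the 4 were called (1 higher at an unadjusted p under 0.05). Without CRCM replicate 3 PDR1 (0.48, adjusted p = 0.000563) and HSF1 (0.28, 0.0278) were higher, beside 1515 of all genes tested. The 24 h calls of these lists also depended on the scaling. Without TMM, an alternative added for these lists after seeing the data, UBP6 was the 1 assembly or associated gene lower with CRCM at 24 h, UBA1, UBC4, and DOA1 were the ubiquitin genes lower, and YAP1, PDR1, PDR3, and HSF1 were all higher. In that fit 3779 of all 6577 genes tested were called higher and 654 lower. At 96 h IRC25, SPG5, FUB1, RAD23, and DSK2 were higher without TMM, and RPN14, ECM29, UBI4, DOA4, DOA1, and UBR2 were among the genes lower (all genes 928 higher and 1878 lower).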

How the data were processed

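RNA-seq of 27 BY4741 libraries was used. The submitters' processing notes name Bowtie2, bedtools, edgeR, DESeq2, and the sacCer3 build without versions, and the gene counting step and its strand setting are not given in the sources used here. The authors deposited a signal in which the reads of a gene are divided by the library total, so each column sums to 1. Whole reads were recovered by fitting each total, and at least 99.96% of testable values (36.5% of all values) were whole within 0.1 read. No column was set aside (0 of 27), and for 7 of these columns a simpler test of whole multiples did not find the step, so their recovery rests on the fitted total alone. The plan's test was limma 3.58.1 (R 4.3.3) on log2(CPM + 1) with TMM factors from edgeR 4.0.16 and a variance trend. Supplement comparisons were fitted over the 9 libraries of a time point, and time steps and interactions over all 27. Genes at 1 CPM or more in at least 3 libraries were tested, and p values were adjusted by Benjamini-Hochberg over all tested genes with a threshold of 0.05. Every adjusted p comes from limma except where edgeR is named, and fold changes are on the log2(CPM + 1) scale. Printed levels use TMM over 27 libraries, and the factors of a time point differed from these by 0.963 to 1.031 in ratio.

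The study describes its replicates as biological. Within a group, 2 libraries differed by a chi-square of at least 3.756 for each degree of freedom, so none was a copy. Same-numbered CRCM and NRCM libraries deviated together in log phase (correlations 0.469, 0.57, and 0.74) and at 24 h (0.335, 0.219, and 0.223). The labels give only replicate numbers, and differently numbered libraries were not correlated, so a pairing is possible and was not established. A fit with the replicate block gave 4 higher and 9 lower subunits for CRCM against NRCM at 24 h. Alternatives were no TMM, edgeR, DESeq2 1.42.0, a pseudocount of 0.25 CPM, no filter, the block, and each library left out. The script was tested on simulated data. All 33 genes matched the RefSeq annotation by locus tag.

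The genes and lists were chosen with earlier results of these data known, and no list was tested as a set. RPN4 is given in every library. For each supplement comparison at 24 h and 96 h up to 3 rises and 3 falls, the largest among called genes, are named, and for each time step up to 2. Genes called in opposite directions against water or with a called interaction are named too. Of the other lists the 3 largest called changes each way with CRCM are named. UBR2, CDC48, PDR3, HSF1, and the per-kilobase extremes were added after their values were seen. PACE positions use the coding starts of the annotation.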

Additional observations from a re-analysis of the deposited data

Results flagged for a closer look

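The effect of CRCM against water differed between 24 h and 96 h for 15 of the 32 subunit genes, by a test of the difference itself (limma interaction over 27 libraries). The change in log2 fold change was 0.74 for PRE6, 0.79 for PUP2, 0.46 for PRE5, and 0.64 for PRE10 in the alpha ring. It was 1.02 for PRE3, 0.84 for PUP1, 0.94 for PRE2, 0.55 for PRE7, and 0.57 for PRE4 in the beta ring. In the 19S particle it was 0.50 for RPT2, 0.56 for RPT3, 0.66 for RPT5, 0.62 for RPN1, 0.81 for RPN2, and 0.47 for RPN3. The calls of 10 of these held whichever library was left out, while PRE6, PRE5, PRE7, RPT2, and RPN3 lost theirs in at least 1 such fit. Without TMM factors 0 subunits were positive and 7 negative, beside 401 and 3299 of all genes, as the median of all genes then moved by -0.55. RPN4 gave 0.08 ± 0.20 (adjusted p = 0.811) in the same test, and without TMM it was -0.47 and called (adjusted p = 0.0441).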

How the results depend on the processing

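Leaving out TMM had the largest effect, and the counts of all genes called without it are given above for the subunit counts named here. It moved the higher counts to 18 and the lower counts to 2 for CRCM against water and against NRCM at 24 h. At 96 h against water it gave 3 lower with CRCM and 7 higher with NRCM. The time steps became 0 higher for water and 6 higher and 12 lower for CRCM from log phase to 24 h, and 21 and 0 for water, 15 and 1 for CRCM, and 26 and 0 for NRCM from 24 h to 96 h. The CRCM interaction became 0 and 7. For RPN4 it reversed values that were not called, to 0.32 and 0.023 for CRCM against NRCM at 24 h and in log phase and to 0.089 for CRCM against water at 24 h. DESeq2 gave 5 higher for NRCM against water at 24 h and 5 lower for NRCM from 24 h to 96 h. The replicate block gave 0 higher for CRCM against NRCM at 96 h. It brought the higher counts against water at 96 h from 18 to 14 with CRCM and from 18 to 12 with NRCM. It turned RPN4 with CRCM against water at 96 h from called to not called (adjusted p = 0.0746), as edgeR did (0.0501). No other count changed by over 1.5 times with the block.

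With 1 library left out, the higher counts ran from 3 to 7 for CRCM against NRCM and 3 to 5 for CRCM against water at 24 h, 0 to 5 for NRCM against water at 24 h, and 9 to 17, 5 to 9, and 0 to 2 for CRCM against water, NRCM against water, and CRCM against NRCM at 96 h. They ran from 0 to 1 for water from log phase to 24 h, 4 to 8 for NRCM from 24 h to 96 h, and 0 to 1 for the NRCM interaction. The lower counts ran from 0 to 8 for NRCM against water at 24 h, 4 to 7 for CRCM against NRCM at 96 h, 2 to 4 for CRCM from 24 h to 96 h, and 1 to 3 for NRCM from 24 h to 96 h. RPN4 ran from -0.18 to 0.076 for CRCM against NRCM at 24 h and from -0.075 to 0.090 in log phase. The cause of these changes was not tested, beyond fewer libraries per fit. Pseudocount, filter, and edgeR kept all subunit counts within 1.5 times. With 470 reads or more per gene and library and a chi-square of at least 3.756 per degree of freedom between replicates, the spread between replicates exceeded counting error.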
